A study of Homo sapiens with 10 samples.

Results

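The regions described here are the deposited ANRIL peaks on human chromosomes 16, 18, 20, 21 and 22. They were taken as every interval of the peak list that lies on 1 of these chromosomes, whatever its values. There were 269 such intervals of 3227 in the list (8.34%), on 10.7% of the hg19 genome length: 53 on chromosome 16, 53 on 18, 40 on 20, 89 on 21 and 34 on 22. The peaks come from ChIRP-seq, in which tagged DNA oligos complementary to a chosen RNA draw that RNA out of sheared chromatin, and the DNA that comes along is sequenced. The work used HEK293, an established cell line derived from human embryonic kidney, grown in serum-containing medium. The labels name no further treatment or genetic change. The ANRIL group had 4 libraries (an even and an odd oligo pool in each of 2 replicates). The LacZ group had 4 libraries made the same way with oligos against a bacterial gene, as the negative control, and there were 2 input libraries. Labels give a depth of 45 M reads per sample. The list merges pools and replicates into 1 set of intervals, called as ANRIL against LacZ. Some called peaks stand in it as more than 1 piece. None of the values below thus has a spread over replicates, and intervals around counts cover counting error only. Which replicate the fold, score and number of an interval come from is not stated. Pieces of 1 split peak share all of them, so they may describe a single replicate's calls.

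ANRIL is a long non-coding RNA transcribed from the short arm of chromosome 9, antisense to the cell cycle inhibitor gene CDKN2B, and it is known for association with Polycomb proteins, which silence genes. The study's title concerns its activity in trans, that is, away from its own gene, and any peak on the chromosomes described here lies on another chromosome than ANRIL. These chromosomes differ in build. Chromosomes 21 and 22 are acrocentric: their short arms carry arrays of ribosomal RNA genes and satellite repeats and are mostly absent from the hg19 sequence. Chromosome 16 has a large block of repeat-rich heterochromatin on the long arm beside the centromere, while 18 and 20 have 2 sequenced arms. In a GRCh38 gene table, used only to count genes per chromosome, 18 and 21 are gene-poor, at 3.46 and 4.97 protein-coding genes per Mb, against 9.45 on 16, 8.52 on 20 and 8.79 on 22. Which genes the peaks lie in or near was not analysed here, and no sequence is shown, because no hg19 sequence or annotation was used.

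Chromosome 21 stood apart from the other 4 in the number of peaks. It carried 1.85 peaks per Mb (exact 95% Poisson interval 1.49 to 2.28). Chromosome 18 carried 0.679 per Mb (0.508 to 0.888), chromosome 22 carried 0.663 (0.459 to 0.926), chromosome 20 carried 0.635 (0.453 to 0.864) and chromosome 16 carried 0.587 (0.439 to 0.767). The intervals of these 4 overlap one another, and none of them overlaps that of chromosome 21. All chromosomes together carried 1.04 per Mb, and 0.841 without chromosome X, which holds a large share of the list. The group as a whole, at 0.813 per Mb (0.719 to 0.916), was close to the 0.845 per Mb of the other 18 chromosomes without X.

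Pairwise comparison gave the same picture. Of the 10 pairs among these chromosomes, 4 differed in density (40% of the pairs; two-sided exact binomial test, p adjusted by Benjamini-Hochberg), and each of the 4 includes chromosome 21. Its density was 2.79 times that of chromosome 22 (95% interval 1.86 to 4.27; exact test, adjusted p = 2.44e-07). The density of chromosome 16 was 0.317 times that of 21 (0.221 to 0.451; exact test, adjusted p = 1.85e-10), that of 18 was 0.367 times (0.256 to 0.522; exact test, adjusted p = 1.86e-08) and that of 20 was 0.343 times (0.230 to 0.504; exact test, adjusted p = 2.02e-08). The remaining 6 pairs had ratios of 0.864 to 1.07 and did not pass. Their intervals are wide. For 16 over 18 the interval ran from 0.579 to 1.29, and for 18 over 22 from 0.654 to 1.63, so differences of that size cannot be told from none with these counts. The test takes peaks as independent, and peaks that lie close together are not. With intervals less than 100 kb apart merged into 1 locus, 4 pairs were still called.

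**Figure D1:**
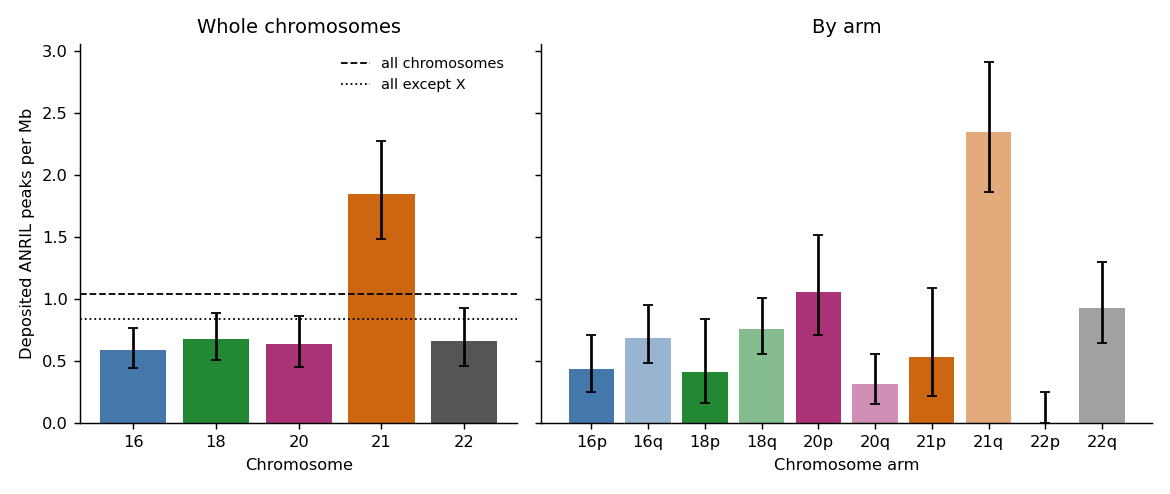
Deposited ANRIL peaks per Mb (vertical axis) on each whole chromosome (left) and on each arm (right, p short and q long); whiskers are exact 95% Poisson intervals, and the dashed and dotted lines give the density over all chromosomes and over all except X. Chromosome 21 stands at 1.85 peaks per Mb, above both lines, and the other 4 at 0.587 to 0.679; the short arms of 21 and 22 are drawn over their full length, most of which hg19 lacks; by arm, 21q is highest at 2.35 and 20q lowest of the arms that hold peaks, at 0.310.

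Set against their share of genome length, in a two-sided exact binomial test adjusted over 24 chromosomes, chromosome 21 was above its share and 16, 18, 20 and 22 were below theirs. Over all chromosomes 29.2% were called above and 62.5% below, so a deficit was the common state in this list. Chromosome 16 stood at 0.563 times its share (exact test, adjusted p = 6.24e-06), chromosome 20 at 0.609 (adjusted p = 0.00112) and chromosome 18 at 0.651 (adjusted p = 0.00122). The peaks of X lower the share of every other chromosome. Without X, 30.4% of 23 chromosomes were called above and 43.5% below. Chromosome 16 was then still below, at 0.697 times its share (exact test, adjusted p = 0.00823), and chromosome 21 above, at 2.20 times. Chromosomes 18, 20 and 22 no longer passed, at 0.807, 0.755 and 0.788 times. These shares use full hg19 lengths, sequence gaps included. The gaps were not measured, so their part in the deficit of 16 was not tested.

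Counted per gene in place of length, chromosome 18 moved away from 16, 20 and 22. Chromosome 21 carried 37.2 peaks per 100 protein-coding genes and chromosome 18 carried 19.6, against 6.21 on chromosome 16, 7.45 on 20 and 7.54 on 22. In this alternative, added after the data were seen, the deficit of chromosome 18 turned into 1.22 times its share of genes, which did not pass (exact test, adjusted p = 0.167). Those of 16, 20 and 22 held, at 0.385, 0.463 and 0.468 times. Most chromosomes of the list passed as below their share of genes, so a deficit was again the common state. Chromosome X was kept in, at 5.52 times its share of genes, which lowers every other chromosome.

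The excess on chromosome 21 was called over all its peaks but not among the higher-scoring ones alone. The score is 10 times the −log10 of the peak's q-value, rounded down, and the list starts at 16. Chromosome 21 had a median score of 19 (interquartile range 17 to 23) and a maximum of 40, and 56.2% of its peaks had a q above 0.01 (exact 95% interval 45.3 to 66.7%). On the other 4 chromosomes the median score was 21 on 16, 22 on 18, 23 on 20 and 21.5 on 22, and that share was 35% to 39.6%. On the other 19 chromosomes of the genome together the share was 42.4%. The highest of them was chromosome 9, at 50.4%, which lies inside the interval of chromosome 21. Peaks with a score of 30 or more numbered 8 on chromosome 21, or 0.166 per Mb. Chromosome 16 had 14 (0.155 per Mb), chromosome 18 had 11 (0.141), chromosome 20 had 6 (0.0952) and chromosome 22 had 4 (0.0780), against 0.181 per Mb over all chromosomes. That total includes X, which held 112 of the 560 such peaks, at 0.721 per Mb, and so raises it. A comparison without X was not made at this score. At that score no pair of these chromosomes was called as different in density, with few peaks to test. Chromosome 21 was still the denser in each of its pairs. Chromosome 16 was at 0.932 times its density, 18 at 0.848 and 20 at 0.573, and the ratio of 21 over 22 was 2.13. Against its length share, chromosome 21 was at 0.919 times (95% interval 0.398 to 1.80; exact test, adjusted p = 1). With scores at or above the list's median of 21, its ratio was 1.12 (0.755 to 1.61; exact test, adjusted p = 0.487), and again no pair was called. Chromosome 21 was still the denser in each of its pairs there. Chromosome 16 was at 0.514 times its density, 18 at 0.616 and 20 at 0.658, and the ratio of 21 over 22 was 1.72. X was kept in both ratios to length share. The ratio of chromosome 21 to its length share over all peaks, 1.77, lies above the interval at the median score. It lies inside that for scores of 30 or more, and both settings leave fewer peaks to count.

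Folds were lowest on chromosome 21. The fold is ANRIL signal divided by the signal expected locally, as the authors' peak caller gave it. Its median was 3.37 on chromosome 21 (interquartile range 3.21 to 3.57), 3.55 on 22 (3.36 to 3.94), 3.63 on 16 (3.42 to 4.09), 3.66 on 18 (3.33 to 4.01) and 3.76 on 20 (3.38 to 4.02). Among the 19 chromosomes with 20 or more peaks, chromosome 20 ranked first in median fold, 18 ranked 3, 16 ranked 5, 22 ranked 11 and 21 ranked 18. Every peak had passed a filter on q, and folds and scores are tied through it, so these medians are a description of the list. At nearly equal score (16 to 18), where 39 peaks of chromosome 21 lay, the median fold was 3.22 there, 3.27 on 18, 3.29 on 16, 3.34 on 22 and 3.38 on 20. On the other 19 chromosomes of the genome together the median at those scores was 3.23, and without X it was 3.29.

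**Figure D2:**
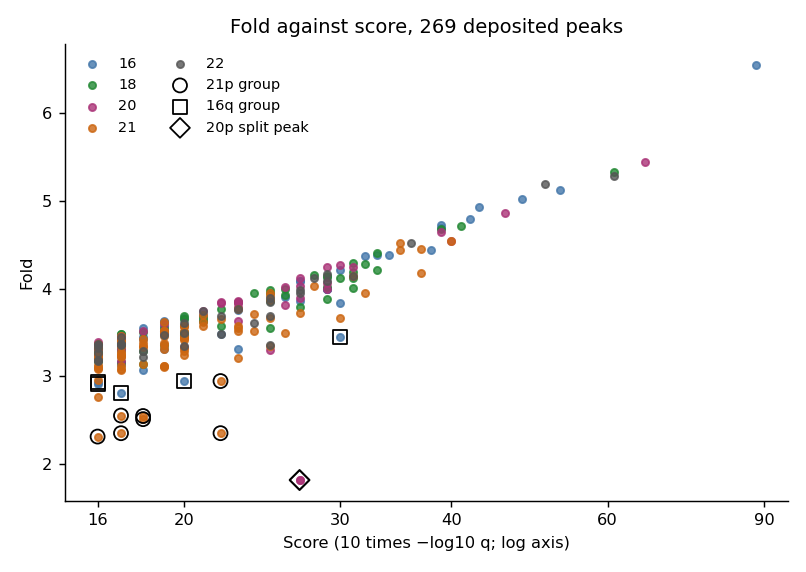
Fold (vertical axis) against score (horizontal axis, logarithmic) for the 269 peaks, coloured by chromosome; circles mark the 7 peaks on 21p, squares 5 neighbouring peaks on 16q and the diamond the pieces of 1 split peak on 20p. Most peaks lie on a narrow rising band, and the marked groups lie below it at their scores, with folds of 2.32 to 2.95 on 21p, 2.81 to 3.44 on 16q and 1.82 on 20p.

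Intervals were widest on chromosome 21. Its median width was 418 bp (interquartile range 280 to 567 bp), against 318 bp on 16 (244 to 470), 307 bp on 18 (257 to 384), 300.5 bp on 20 (230.5 to 391.75) and 284 bp on 22 (262.5 to 361). Peaks of 1000 bp or more numbered 11 on chromosome 21 (12.4%, exact 95% interval 6.33 to 21.04%), while the other 4 chromosomes held 2 in 180 peaks, both on 16. In the whole list 193 peaks were that wide, and chromosome 21 ranked 2 of 19 chromosomes in their share. Of the 11, 2 lay on the short arm. The remaining 9 lay on 21q, with widths of 1059 to 1709 bp, a median fold of 3.35 and scores of 16 to 27, so they were not the strongest peaks of the arm. The 89 peaks of chromosome 21 covered 47.2 kb or 0.0981% of its length, against 0.0212% to 0.0238% of each of the other 4. Widths are those left after the authors intersected the replicates.

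**Figure D3:**
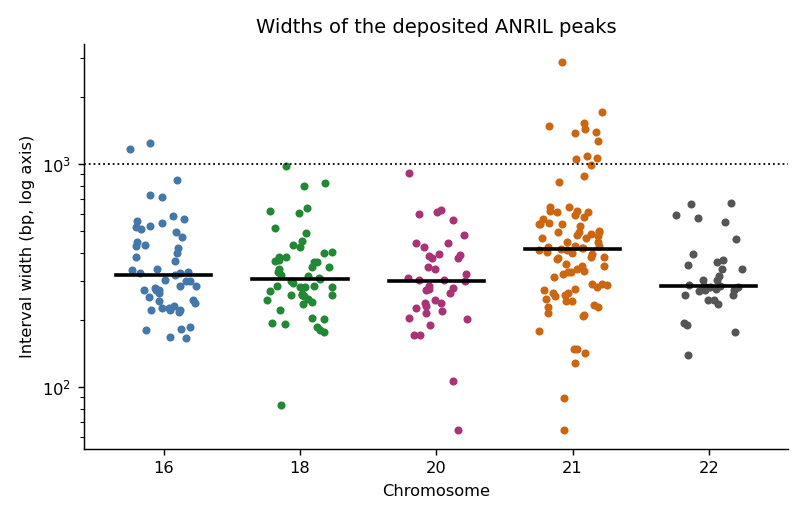
Width in bp (vertical axis, logarithmic) of each deposited peak on each chromosome; each point is 1 interval, black bars are medians and the dotted line marks 1000 bp. Chromosome 21 has the widest median, 418 bp, and 11 of the 13 peaks above the line.

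On chromosome 21 the peaks fell into a long arm that was filled along its length and 1 tight group on the short arm. The long arm carried 82 peaks, 2.35 per Mb (1.87 to 2.91). Between 20 and 30 Mb there were 30, between 30 and 40 Mb 24, and beyond 40 Mb 18. Over the whole chromosome, short-arm group included, neighbouring peaks lay a median of 284 kb apart. The medians were 453 kb on 22, 672 kb on 20, 991 kb on 18 and 1017 kb on 16. The best peak of the chromosome, at 15836732 to 15837181 (score 40, fold 4.54), was also its first on the long arm, 2.64 Mb from the centromere position. The next were at 35932824 to 35933171 (score 37, fold 4.45) and at 42458712 to 42459320 (score 37, fold 4.17).

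The short-arm group of chromosome 21 held 7 peaks within 34.2 kb, from 11112374 to 11146545, about 2 Mb from the centromere position. Their folds were 2.95, 2.55, 2.32, 2.56, 2.51, 2.35 and 2.35 in order of position, with scores of 22, 18, 16, 17, 18, 22 and 17. The median, 2.51, compares with 3.39 for the 82 peaks of the long arm, and the highest of the 7 lies below all but 1 of those. The third peak, 11122283 to 11125146, was the widest of all 269 at 2864 bp and also had the lowest fold of the chromosome. At scores of 16 to 18, 5 of these peaks had a median fold of 2.51, against 3.25 for 34 peaks of the long arm. Folds under 2.5 were rare in the list: 14 intervals in all, 5 of them here, 3 in this group and 2 on 20p.

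The 7 peaks of this group also bore 7 consecutive peak numbers. Each peak name ends in a number, which rises along the genome with gaps, and a missing number was taken as a peak that was called and then filtered out. Over the whole list 5.68% of numbers survived. A run of 7 was the longest in the list: 2776 retained names had no retained neighbour in number, 188 runs were of 2, 14 of 3 and 2 of 4. On chromosome 21 the next retained number followed after 22 missing ones, at 15836732. Along the long arm 81 of at least 1499 numbers survived (5.40%).

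**Figure D4:**
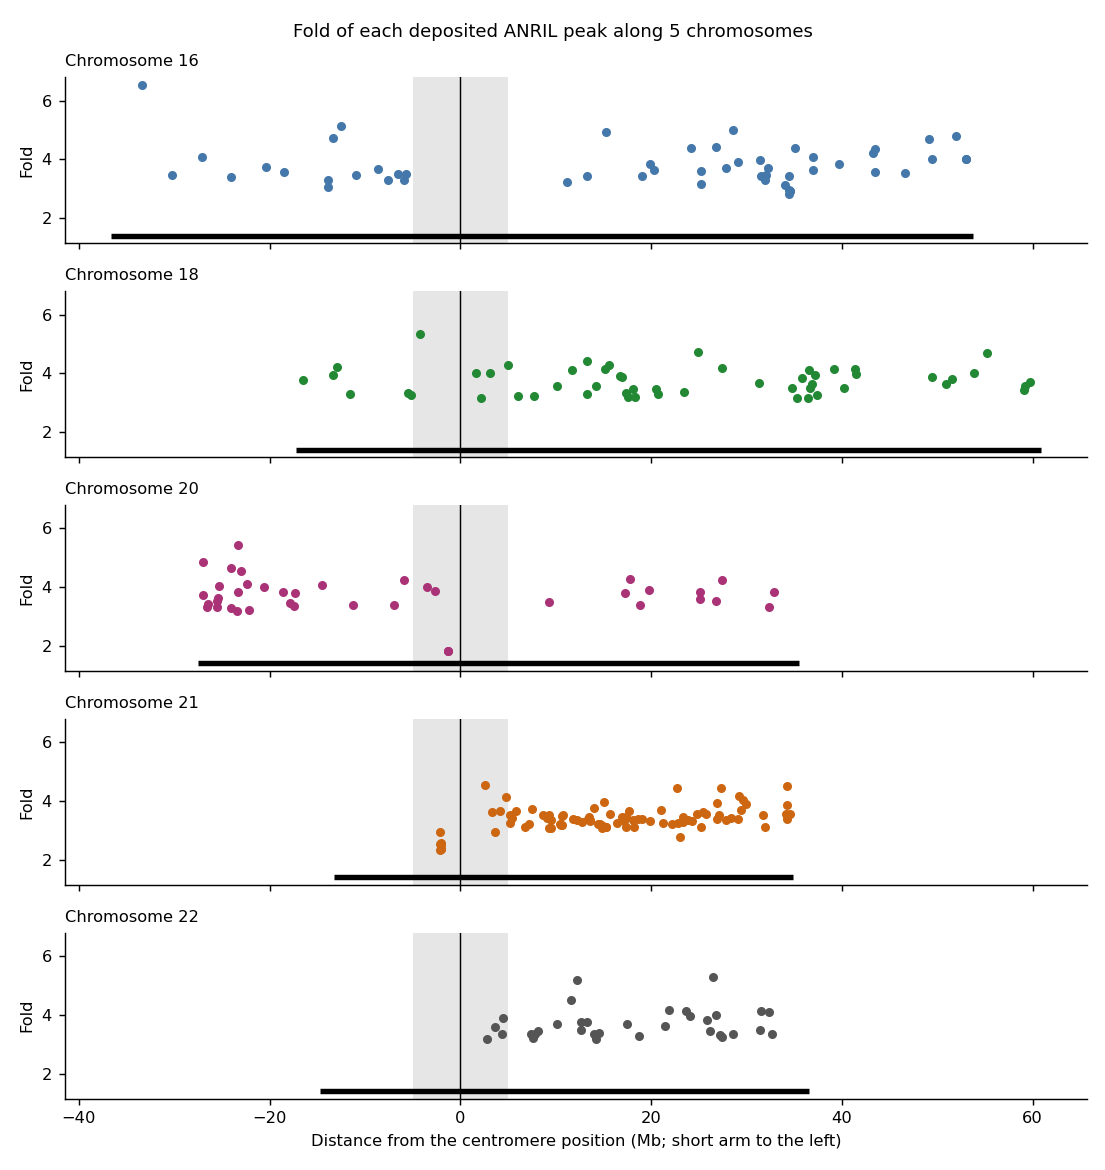
Fold (vertical axis) of every deposited peak against its distance from the centromere position in Mb (horizontal axis, short arm to the left) on each chromosome; the black bar shows the length of the chromosome and the grey band 5 Mb on each side of the centromere position. The band is empty on 16; on 21 it holds the short-arm group at folds of 2.32 to 2.95, and on 20 the split peak at 1.82, with an empty stretch to its right.

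Of the 3 chromosomes with both arms tested, 16, 18 and 20, the arms differed on 20. Its short arm held 29 of 40 peaks (72.5%) on 43.6% of its length, 1.66 times the share expected (two-sided exact binomial test, adjusted over 3 chromosomes, p = 0.000969). Density was 1.05 per Mb on 20p (0.706 to 1.51) and 0.310 per Mb on 20q (0.155 to 0.554). The peaks of 20p were crowded towards its end: 19 lay in the first 10 Mb, which makes 19 of 40 on the whole chromosome, and 4 in the next 10 Mb. Median fold was 3.74 on 20p and 3.79 on 20q, so the arm with more peaks did not have higher folds. The 3 best peaks of the chromosome all lay near the end of 20p, at 4207292 to 4207912 (score 66, fold 5.44), at 535787 to 536231 (score 46, fold 4.86) and at 4484698 to 4485258 (score 40, fold 4.54). Bins of 1 Mb starting at 2 and at 4 Mb tied as its densest, with 4 peaks each. The excess of 20p no longer passed for scores of 30 or more (1.91 times, exact test, adjusted p = 0.270). The 29 intervals of 20p include both pieces of 1 split peak, which are not independent. With intervals less than 10 kb apart merged, which joins them, the ratio was 1.63 (exact test, adjusted p = 0.00254).

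The lowest fold of the whole list was also on 20p. A single called peak there had been split by the intersection into 26188867 to 26189071 and 26189824 to 26190203, 1.31 Mb from the centromere position. Both pieces carry a fold of 1.82 and a score of 27, which is above the chromosome's median score. The next lowest fold at a score of 20 or more on these chromosomes was 2.35, on 21p. Beyond it lay the longest empty stretch of chromosome 20, 10.6 Mb across the centromere, up to the first peak of 20q at 36767436.

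On chromosome 16 the arms did not differ by this test. The short arm held 16 of 53 peaks, 0.745 times the share of its length (exact test, adjusted p = 0.161), at 0.437 per Mb against 0.688 on the long arm. Arm lengths include sequence gaps, which were not measured, so their part in the arm ratios was not tested. The repeat-rich block beside the centromere counts in the length of 16q. The strongest of the 269 peaks was on 16p at 3245882 to 3246405, with a score of 88 and a fold of 6.55, which ranked 6 in score and 3 in fold in the whole list. The next on this chromosome were at 24060609 to 24061166 (score 53, fold 5.13) and on 16q at 65217837 to 65218306 (score 48, fold 5.02). The far long arm was fuller than the rest, with 12 peaks from 60 to 70 Mb and 11 from 70 to 80 Mb, against 2 from 40 to 50 Mb. The densest 1 Mb bin began at 71 Mb, and 5 of its 6 peaks lay within 103 kb, from 71053011 to 71155709. Their folds were 3.44, 2.95, 2.81, 2.92 and 2.94, with scores of 30, 20, 17, 16 and 16. The last 4 are the only peaks of chromosome 16 with a fold under 3, and the second of them in position, at 71111163 to 71111486, had the lowest. The group includes the widest peak of the chromosome, 1241 bp. Its 5 peaks span 17 numbers, so 29.4% were kept. The group was chosen for its density, so its share has no test.

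On chromosome 18 neither arm stood out. The short arm held 7 of 53 peaks, 0.5995 times its share (exact test, adjusted p = 0.161), at 0.407 per Mb against 0.756 on the long arm, and the interval for 18p, 0.164 to 0.839, includes the value of 18q. Folds ran from 3.14, at 53698398 to 53698762, to 5.33. The peak with the highest fold, at 12999494 to 12999833 (score 61), also had the best score and was the peak of 18p nearest the centromere, 4.20 Mb away. The next best were at 42099921 to 42100347 (score 41, fold 4.71) and 72384287 to 72384594 (score 39, fold 4.68). The densest 1 Mb bin began at 53 Mb and held 4 peaks, with folds of 3.14 to 4.12. Counts per 10 Mb were uneven, at 13 from 30 to 40 Mb and from 50 to 60 Mb, against 4 between them and 3 from 60 to 70 Mb. The widest peak was the first of the chromosome, 985 bp at 666730.

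Chromosome 22 had no peak on its short arm, most of which is not in the hg19 sequence, so little of it could hold a peak. The first peak, at 17541140 to 17541443, was 2.84 Mb beyond the centromere position and had the lowest fold of the chromosome, 3.18. The long arm held all 34, at 0.929 per Mb (0.643 to 1.30). Counting long arms alone for 21 and 22, chromosome 22 stood at 0.885 times its share of length (exact test, adjusted p = 0.517), and 21q was 2.53 times as dense as 22q (exact test, adjusted p = 6.10e-06). Chromosome 21 itself rose to 2.24 times its share. The best peaks of 22 were at 41230568 to 41230905 (score 61, fold 5.27), 26976563 to 26976835 (score 51, fold 5.19) and 26344693 to 26345240 (score 36, fold 4.51). Its densest 1 Mb bin began at 22 Mb and held 4 peaks, with folds of 3.22 to 3.45. None of its peaks was wider than 667 bp.

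Near the centromere peaks were not in excess on any of these chromosomes. Within 5 Mb of the centromere position there were 0 of 53 peaks on 16, 5 of 53 on 18 and 4 of 40 on 20. There were 12 of 89 on 21 and 4 of 34 on 22. All lay below the 5.87, 6.79, 6.35, 18.5 and 6.63 expected from length. The 4 on 20 count both pieces of the split peak of 20p. The deficit passed on chromosome 16 (two-sided exact binomial test adjusted over 5 chromosomes, p = 0.0174), where a count of 0 allows a share of up to 5.66%, taking 3 counts as the limit. That call depended on the setting: with a window of 3 Mb the count was again 0 but did not pass (exact test, adjusted p = 0.246), and with 10 Mb the ratio was 0.426 (adjusted p = 0.0743). The deficit did not pass on 18, 20, 21 and 22 (exact test, adjusted p = 0.679, 0.489, 0.289 and 0.489). On 21 it did pass with intervals less than 10 kb apart merged (0.411 times), without folds under 2.5 (0.504) and with the window of 10 Mb (0.676). Merging fuses most of the short-arm group of 21, which lies inside the window. The limit on fold, chosen after the data were seen, removes peaks of this chromosome only from that group. Both settings thus lower the count in the window by construction and add no separate support. The windows include sequence gaps of hg19, which were not measured, so the length in which a peak could be placed is overstated. Gaps and a lack of peaks cannot be told apart here. On chromosome 16 the peaks just outside were 5.69 Mb away on the short arm and 11.2 Mb away on the long arm. The furthest inside the window was at 4.97 Mb on 18, 3.45 Mb on 20, 4.80 Mb on 21 and 4.44 Mb on 22, and the nearest outside at 5.22, 5.95, 5.19 and 7.39 Mb.

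What lay near the centromere differed between chromosomes. On 18, the 5 peaks in the window had a median fold of 4.01 and a median score of 31, against 3.64 and 21 for the other 48. On 22, the 4 peaks had a median fold of 3.48 against 3.55 outside. On 20 and 21 the medians inside were 2.84 and 2.75, against 3.76 and 3.38 outside, and these low medians rest on the split peak of 20p and the group of 21p. The other 5 peaks in the window of 21, all on the long arm, had folds of 4.54, 3.62, 2.96, 3.66 and 4.14.

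Peak numbers also bound how many peaks were called before filtering. Chromosome 21 had 1528 to 1563 called peaks (31.7 to 32.5 per Mb), chromosome 18 had 1495 to 1545 (19.1 to 19.8 per Mb), chromosome 22 had 679 to 769 (13.2 to 14.99), chromosome 16 had 994 to 1023 (11.001 to 11.3) and chromosome 20 had 601 to 643 (9.54 to 10.2). Chromosome 18 was thus called more densely than 16, 20 and 22, but its final density was near theirs. It kept 3.43% to 3.55% of its called peaks, against 5.08% to 5.23% on 16, 6.07% to 6.49% on 20, 5.63% to 5.76% on 21 and 4.42% to 5.01% on 22. With counting error, the exact 95% interval was 2.58 to 4.61% for 18 and 4.54 to 7.05% for 21. The 2 overlap narrowly, and the difference was not tested. The arms of chromosome 20 were already unequal in called peaks, at 13.3 to 15.5 per Mb on 20p and 5.38 to 7.35 on 20q.

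**Figure D5:**
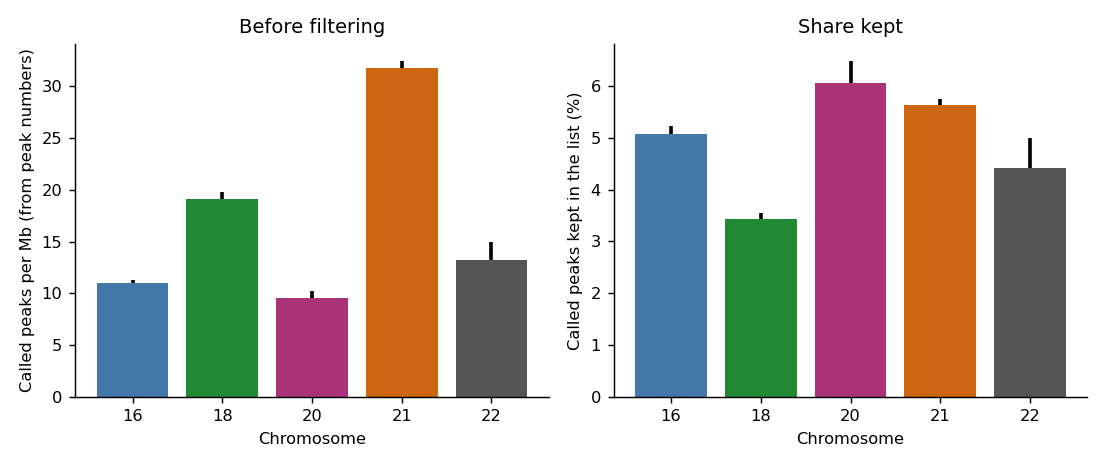
Called peaks per Mb before filtering (left) and percent of called peaks kept in the deposited list (right), by chromosome; bars show the lower limit from peak numbers and black lines run to the upper limit. Chromosome 21 was called most densely, at 31.7 per Mb or more, and chromosome 18 kept the smallest share, 3.43% to 3.55%.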

How the data were processed

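The deposited list gives, per interval, a score, a fold (a ratio of ANRIL signal to expectation) and −log10 p-values and q-values, made by the authors. Bowtie2, bedtools, MACS2 and deepTools, and the build hg19, stand in the submitters' processing notes without roles. Per the file's title and names, ANRIL was called against LacZ, both replicates' peaks were intersected, a score filter of 15 was set and blacklisted regions were considered. The score was 10 times −log10 q, rounded down, in 3227 rows. Columns were identified from values and order. Read depth per peak is unknown.

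Positions count from 1, in hg19. Chromosome lengths are the standard hg19 ones, and centromere positions (36.6, 17.2, 27.5, 13.2 and 14.7 Mb for 16, 18, 20, 21 and 22) are approximate; both come from general knowledge. A peak's midpoint decided its arm. Densities were tested with two-sided exact binomial tests and Benjamini-Hochberg adjustment at 0.05 over 24 chromosomes, 10 pairs, 3 arms or 5 windows, checked on simulated data. Widths, folds and scores were described without a test. Named per chromosome were the 3 highest scores, the 2 widest, the lowest fold, the peaks nearest the centromere, the densest 1 Mb bin and the longest empty stretch (some second widest and some nearest peaks are not printed). Other places were chosen after their values were seen. The chromosomes and tests were chosen with earlier results of these data known. The identity of the cells and the levels in LacZ or input libraries were not analysed here. Tests used scipy 1.17.1, tables numpy 2.4.6 with pandas 2.3.3, and plots matplotlib 3.10.9, under Python 3.11.15.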

Additional observations from a re-analysis of the deposited data

How the results depend on the processing

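Alternatives were stricter scores, merging close intervals, leaving out folds under 2.5, other lengths, bins and windows, and leaving out X or Y; the settings on fold and on gene share were chosen after seeing the data. Of 101 tested values by chromosome, arm or window, 72 kept both direction and call. Keeping scores at or above the median, the ratio to length share no longer passed on 18 (0.693), 20 (0.740), 21 (1.12) and 22 (0.655), and 0 pairs were called. For scores of 30 or more, it no longer passed on 16 (0.857), 18 (0.779), 20 (0.526) and 22 (0.431), and turned on 21 (0.919) without passing. X was kept in, with 112 of the 560 such peaks, which lowers the ratio of every other chromosome. At that score 0 pairs were called, the 20p excess did not pass (1.91) and chromosome median scores spread over 11.5 in place of 4. Fewer peaks were tested. Merging within 100 kb ended the calls of 18 (0.833) and 22 (0.802), leaving out X those of 18 (0.807), 20 (0.755) and 22 (0.788), and long arms alone that of 22 (0.885); against gene share 18 turned (1.22). Near the centromere, chromosome 16 held no peak but did not pass with either score setting, merging within 100 kb or a window of 3 Mb (ratio 0 in each), nor with a window of 10 Mb (0.426). Chromosome 21 passed as a deficit after merging within 10 kb (0.411), without folds under 2.5 (0.504) and with a window of 10 Mb (0.676). Merging and the limit on fold act mainly on its short-arm group, which lies inside the window. Changes of direction that did not pass were those in the windows of 18 (1.08) and 20 (1.01) with the median score as minimum and of 18 (2.13) and 21 (1.80) for scores of 30 or more. Among pairs, 7 turned without passing: 18 over 20 (0.936) and 20 over 22 (1.13) for scores at or above the median; 16 over 18 (1.10), 16 over 20 (1.63), 16 over 22 (1.99) and 20 over 22 (1.22) for scores of 30 or more; and 18 over 22 (0.731) for long arms. The cause of these changes was not tested, and the score settings left fewer peaks to test. No replicate could be left out, and pairing could not be used. No paired analysis was possible because each interval stands for the 2 replicates together.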

Other observations

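The longest stretches without a retained peak differed in how many peaks had been called inside them. On chromosome 18 it ran for 7.99 Mb, from 58647589 to 66634575, and the numbers on either side show 179 called peaks in between, 22.4 per Mb, none of which was kept. The chromosome as a whole had 19.1 to 19.8 called peaks per Mb. On chromosome 16 the stretch of 16.9 Mb across the centromere, from 30908142 to 47765757, held 47 called peaks (2.79 per Mb), and on chromosome 20 that of 10.6 Mb held 45 (4.25 per Mb). On 21 the 4.69 Mb from the short-arm group to the long arm held 22, and on 22 the 2.95 Mb from 19142779 to 22094619 held 27. Each stretch was selected as the longest without a kept peak, so its count of 0 was set by the choice and was not tested.

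The ends of the long arms were reached to different degrees. The last peak lay 314 kb from the end of chromosome 21 and 707 kb from that of 16, 1167 kb from that of 18, 2641 kb from that of 20 and 3939 kb from that of 22. At the other end, the first peak lay 536 kb from the start of chromosome 20, 667 kb from that of 18 and 3246 kb from that of 16. The last peak of 16 was 1 of 3 called peaks on these chromosomes that the intersection had left in 2 pieces. Its pieces, 325 and 851 bp wide, lie 0.787 kb apart. The pieces on 21q, at 28481161 to 28481302 and 28482119 to 28482456 (fold 3.12), lie 0.816 kb apart, and those on 20p 0.752 kb. Counted by name, the 269 intervals are 266 peaks.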
